A study of Mus musculus with 8 samples.

Results

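The 10 genes described here were Fos, Fosb, Jun, Junb, Jund, Egr1, Atf3, Ier2, Ier3 and Gadd45g, a set of transcription factors of the AP-1 group and other immediate early genes. They and the gene lists used below were taken by name, with earlier results of these data known. All 10 genes were found among the 11447 gene identifiers of the tables and among the 9253 genes tested. GFP-positive smooth muscle cells were sorted from digested mouse ascending aorta and their RNA was read cell by cell on the 10x Chromium droplet system. The groups called KO were mice labelled TGFBetaRiSMC-Apoe, with the TGF-beta receptor gene Tgfbr2 knocked out in smooth muscle on an Apoe-deficient background, on the diet labelled ND or after 1, 2 or 4 months of high fat diet (HFD; 1M, 2M and 4M). The groups called Apoe were Apoe-/- mice on the same 4 diets, so all 8 libraries lacked Apoe. The study compared smooth muscle cells of both genotypes on high fat diet. Each genotype and diet had 1 library, and the labels state neither the ages, nor the number of animals in a library, nor the driver of the knockout.

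AP-1 is a dimer of a Fos family and a Jun family protein, or of either with a protein of the ATF family, and binds DNA through paired basic leucine zippers. Immediate early genes are transcribed within minutes of a stimulus such as serum, a growth factor, stretch or injury, because the kinases and transcription factors that switch them on are already in the cell. In the vessel wall they respond to growth factors and injury, and in any tissue they also respond to enzymatic digestion, so their level in sorted cells includes what happened during cell isolation.

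The libraries held 1127, 1302, 2253 and 1577 cells in KO from ND to 4M, against 1415, 1488, 2659 and 1235 cells in Apoe, with medians of 6966 to 10988 unique molecular identifiers (UMIs) per cell. No pair of libraries shared more than 9 cell barcodes. The 4M libraries stood apart, KO 4M most of all. The 8 smooth muscle markers summed to 49170, 46236, 42699 and 1706 CPM (the gene's share of the library's UMIs, scaled to a total of 1000000) in KO from ND to 4M, against 37342, 39849, 36223 and 25431 CPM in Apoe. The 9 cartilage markers, Col2a1 among them, summed to 31348 CPM in KO 4M and 4280 CPM in Apoe 4M, and to 45.6 to 1305 CPM elsewhere. The KO 4M cells, sorted as smooth muscle cells, were thus low in smooth muscle markers and high in cartilage markers. Before 4M the genotypes differed too. The cartilage markers stood at 1305 CPM in KO 2M, against 87.9 CPM in Apoe 2M. The fibroblast markers summed to 68.9, 534 and 3358 CPM in KO from ND to 2M, against 54.9, 48.2 and 121 CPM in Apoe. Some of them were at 0 in all of these libraries but KO 1M. Results are given with and without the 4M libraries. At least 3 macrophage markers were seen in 62 cells of the KO 1M library and 56 cells of KO 4M, and in 0 cells of the other 6. A gene seen in under 5% of a library's cells is listed at 0 in these tables. In those 6 libraries only 1 or 2 macrophage markers had values, so no cell there could reach 3. The count of 0 thus does not show whether macrophages were present.

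Promoter stretches are shown for 5 of the 6 members whose genotype effect without 4M or slope in KO passed a test, so that the letters next to their starts can be compared; the sixth is Egr1. RefSeq promoters were at hand for 8 of the 10 members, all but Egr1 and Ier2. The RefSeq start lay within 30 bases of the GENCODE gene start for the 5 genes shown, except Atf3, whose GENCODE gene begins 34706 bases further upstream. Each line gives the 140 bases before the RefSeq start on the gene's own strand, 5′ to 3′, from build GRCm38.p6, and capitals mark matches to the motifs named below. The Fos stretch is chr12:85473750-85473889 (plus strand), Fosb chr7:19310046-19310185 (minus), Junb chr8:84978749-84978888 (minus), Atf3 chr1:191183334-191183473 (minus) and Gadd45g chr13:51846535-51846674 (plus).
Fos: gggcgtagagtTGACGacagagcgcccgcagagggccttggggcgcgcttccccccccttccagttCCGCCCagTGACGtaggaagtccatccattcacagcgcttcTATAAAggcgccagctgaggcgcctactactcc
Fosb: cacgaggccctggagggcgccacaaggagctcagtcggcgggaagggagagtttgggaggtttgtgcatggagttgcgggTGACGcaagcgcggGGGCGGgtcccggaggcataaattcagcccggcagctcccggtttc
Junb: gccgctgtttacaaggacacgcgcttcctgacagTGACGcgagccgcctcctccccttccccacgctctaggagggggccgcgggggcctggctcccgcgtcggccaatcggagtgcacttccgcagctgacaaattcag
Atf3: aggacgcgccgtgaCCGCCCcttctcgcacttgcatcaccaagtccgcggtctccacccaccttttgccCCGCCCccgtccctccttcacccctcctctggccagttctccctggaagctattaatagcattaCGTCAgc
Gadd45g: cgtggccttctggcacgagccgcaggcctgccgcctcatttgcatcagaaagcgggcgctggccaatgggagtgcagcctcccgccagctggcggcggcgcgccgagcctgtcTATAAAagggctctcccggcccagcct

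The motifs were searched on both strands in all 300 bases of each RefSeq window, 250 before to 50 after the start. They were the CArG box bound by serum response factor, TGACGTCA bound by CREB and ATF proteins, TGANTCA bound by AP-1, TATAAA bound by the TATA factor, and GGGCGG bound by SP1. A shorter piece of the CREB motif, TGACG, which lies within it, was added after the sequences were seen. GGGCGG was in 5 of the 8 members, against 35.7% of all 32851 promoters, and TATAAA in 3 of 8, against 13.6%. TGACG was in Fos, Fosb, Junb and Atf3, 4 of 8, against 20.8% of all promoters. The CArG box, TGACGTCA and TGANTCA matched 0 of the 8 windows, against 1.63%, 1.79% and 7.81% of all promoters, which says only that these letters are not in these windows. In Fos the downstream TGACG lay 66 to 62 bases before the start and TATAAA 33 to 28 bases before it.

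Fos, which forms AP-1 with Jun proteins, was lower in KO on every diet. Fos (chromosome 12, 85473890 to 85477273, plus strand, GRCm38) stood at 1822, 2387, 2437 and 609.9 CPM in KO ND, 1M, 2M and 4M, against 3707, 3878, 4401 and 2912 CPM in Apoe. All 4 KO libraries were below all 4 Apoe libraries, and KO 4M was the lowest of the 8. The KO level was 0.491, 0.616, 0.554 and 0.209 times the Apoe level from ND to 4M. Most cells still held Fos RNA, with a UMI in 98.3%, 98.6%, 97.5% and 75.5% of KO cells, against 99.7%, 99.7%, 98.8% and 96.2% of Apoe cells. With every cell thinned to 2905 UMIs, Fos was seen in 90.4%, 93.2%, 91.3% and 48.3% of KO cells, against 97.2%, 97.8%, 95.9% and 90.4% of Apoe cells, and this gap was widest at 4M. All cell types can transcribe these genes, so no share from cells lacking them was at hand to gauge free RNA.

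Fosb, a Fos family protein that pairs with Jun proteins as Fos does, followed the same order of genotypes. Fosb (chromosome 7, 19302696 to 19310051, minus strand) stood at 310.0, 378, 328 and 249.8 CPM in KO from ND to 4M, against 591, 646, 759.7 and 662 CPM in Apoe. The genotypes did not overlap, and the KO level was 0.525, 0.586, 0.432 and 0.377 times the Apoe level from ND to 4M. In thinned cells 51.0%, 55.1%, 48.7% and 39.5% of KO cells held a Fosb UMI, against 70.5%, 73.9%, 80.2% and 66.2% of Apoe cells.

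Jun, the founding partner of Fos in AP-1, was also lower in KO on each diet, by less. Jun (chromosome 4, 95049034 to 95052222, minus strand) stood at 659, 625, 788 and 483 CPM in KO from ND to 4M, against 902, 961, 969 and 946 CPM in Apoe. The Apoe libraries lay close together and above every KO library. Junb, which can temper Jun activity on some promoters, stood at 455, 733, 892 and 818 CPM in KO, against 832, 923, 1406 and 985 CPM in Apoe. KO was lower on each diet, but KO 2M was above Apoe ND, and KO 4M was not low for this gene. At 4M the log2 difference of Junb was -0.27, near the median of -0.24 over all genes. With libraries scaled by the median ratio of genes it was -0.005. Jund, the most evenly transcribed Jun gene and little induced by serum, stood at 776, 782, 787 and 389 CPM in KO, against 752, 894, 907 and 608 CPM in Apoe. Jund on ND was the 1 of 40 pairs of gene and diet with the higher level in KO, and the Poisson intervals of that pair overlapped, whereas the intervals of the other 39 pairs were apart (counting error only).

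Atf3, a stress-induced partner that often represses, stood at 805, 735, 698 and 330.3 CPM in KO from ND to 4M, against 1006, 1193, 1369 and 635 CPM in Apoe. Both 4M libraries were the lowest of their genotype, and Apoe 4M lay below the KO libraries of the other diets. Egr1, a zinc finger factor of the same early wave (chromosome 18, 34859823 to 34864984, plus strand), stood at 1043, 1159.8, 821 and 512 CPM in KO, against 1671, 1573, 1699 and 1615 CPM in Apoe. Egr1 did not overlap between genotypes, and its Apoe libraries were nearly level over the diets while the KO libraries were not.

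Among the other immediate early genes, Ier2, a nuclear protein of the early wave, was nearest to level: 384, 444, 471 and 434 CPM in KO from ND to 4M, against 552, 492, 694 and 518 CPM in Apoe. Its KO libraries were all below its Apoe libraries, by a small margin. Ier3, which acts on cell survival, stood at 397, 596, 465 and 267 CPM in KO, against 701, 709.5, 750.5 and 494 CPM in Apoe. KO 1M lay above Apoe 4M, and on each single diet KO was lower. Gadd45g, a growth arrest and stress kinase regulator, stood at 1317, 1872, 1397 and 259.8 CPM in KO, against 2306, 2311, 2991 and 818 CPM in Apoe. The 4M library was far the lowest of each genotype for Gadd45g.

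**Figure D1:**
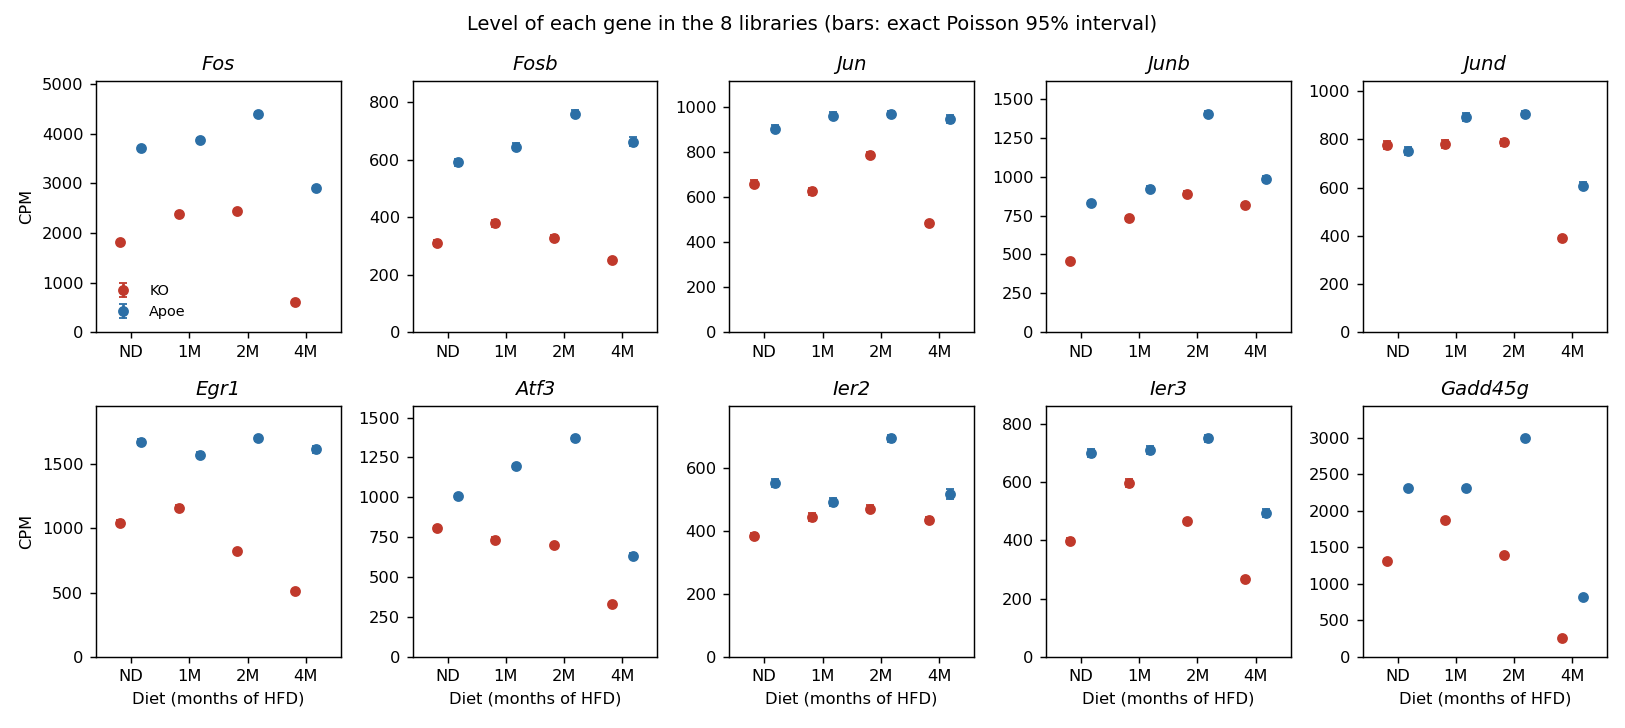
Level of each of the 10 genes in CPM (y axis, from 0) by diet (x axis), with the KO library left of the Apoe library in each diet; bars are exact Poisson 95% intervals and cover counting error only. KO is lower in 39 of the 40 pairs (38 with median-ratio scaling, where Ier2 at 4M turns), and Apoe 2M is the highest library for all 10 genes. The share of all genes highest in Apoe 2M was not counted.

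Over the set, 9 of the 10 genes were lower in KO on all 4 diets, where 19.4% of the genes listed in every library were. With libraries scaled by the median ratio of genes, Ier2 at 4M turned to a log2 difference of 0.0076, and 38 of the 40 pairs were lower in KO. In CPM the genotypes did not overlap for 5 genes (Fos, Fosb, Jun, Egr1 and Ier2), against 6.91% of genes. For Ier2 they overlapped with median-ratio scaling. In CPM the Poisson intervals of Ier2 in KO 2M (461 to 481) and Apoe 1M (480 to 504) overlapped too. Apoe 2M was the highest library for all 10, but the share of all genes highest in Apoe 2M was not counted. KO 4M was the lowest library for 8 genes, but so it was for 48.8% of genes, so that count is not far from the rest of the transcriptome. A difference of log2(CPM + 1) of -1 or lower was reached by Fos on ND (1.37% of genes did so), by 0 of the 10 at 1M (0.77%), by Fosb, Egr1 and Gadd45g at 2M (2.17%), and by those genes and Fos at 4M (17.0%). The median difference over the 10 was -0.74, -0.39, -0.77 and -0.95 from ND to 4M, against -0.05, 0.02, -0.02 and -0.24 over all genes listed in both libraries of the diet. These single-diet differences set 1 library against 1 and have no replicate.

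The test over diets used the mean log2 value of all cells of a library, with zeros included, in limma with diet as a factor. The genotype effect (KO minus Apoe) was -1.19 ± 0.27 for Fos, -0.82 ± 0.11 for Fosb, -0.77 ± 0.18 for Gadd45g and -0.71 ± 0.17 for Egr1 (SE over 8 libraries). It was -0.55 ± 0.17 for Atf3, -0.48 ± 0.12 for Ier3, -0.47 ± 0.16 for Jun and -0.39 ± 0.14 for Junb. For Ier2 it was -0.22 ± 0.11 and for Jund -0.14 ± 0.15. By limma with Benjamini-Hochberg adjustment over all 9253 genes, 0 of the 10 passed an adjusted p of 0.05, and 0.162% of all genes did. The adjusted p was 0.0944 for Fosb, 0.210 for Fos and 0.211 for Gadd45g, and the unadjusted p was under 0.05 for 8 of the 10, all but Ier2 and Jund, against 7.38% of all genes with such a p and a lower level in KO. The p-values measure the spread of single libraries around an additive model.

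Without the 4M libraries the spread around that model was smaller, and Fos fell by 0.89 ± 0.08 (adjusted p = 0.0151 by limma), Fosb by 0.83 ± 0.09 (adjusted p = 0.0197) and Junb by 0.47 ± 0.09 (adjusted p = 0.0478) in KO. These were 3 of the 10, against 4.39% of all genes called lower in that fit and 2.91% called higher. Each of the 3 was lower in KO on 3 of 3 diets. Markers of other cells moved in the same fit. Of 6 pericyte markers 3 were lower and 3 higher in KO, and Rgs5 (effect -0.44) and Cspg4 (-0.20) were called lower. Lgals3 (0.59), the only 1 of 11 macrophage markers tested, was called higher. Of 8 smooth muscle markers 7 were higher in KO, and Tpm2 (0.45) was called. All 3 fibroblast markers tested were higher in KO, and 0 were called. Their part in the result was not tested. Gadd45g, Egr1 and Ier3 missed the threshold by little there, with adjusted p-values of 0.0526, 0.0528 and 0.0537 by limma and effects of -0.72, -0.63 and -0.45. With 0, 1 and 2 months only, 8 of the 10 genes had every KO library below every Apoe library, against 19.9% of genes. Leaving out the libraries of ND, 1M or 2M instead gave 0 called genes of the whole table, so the calls rest on leaving out 4M.

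**Figure D2:**
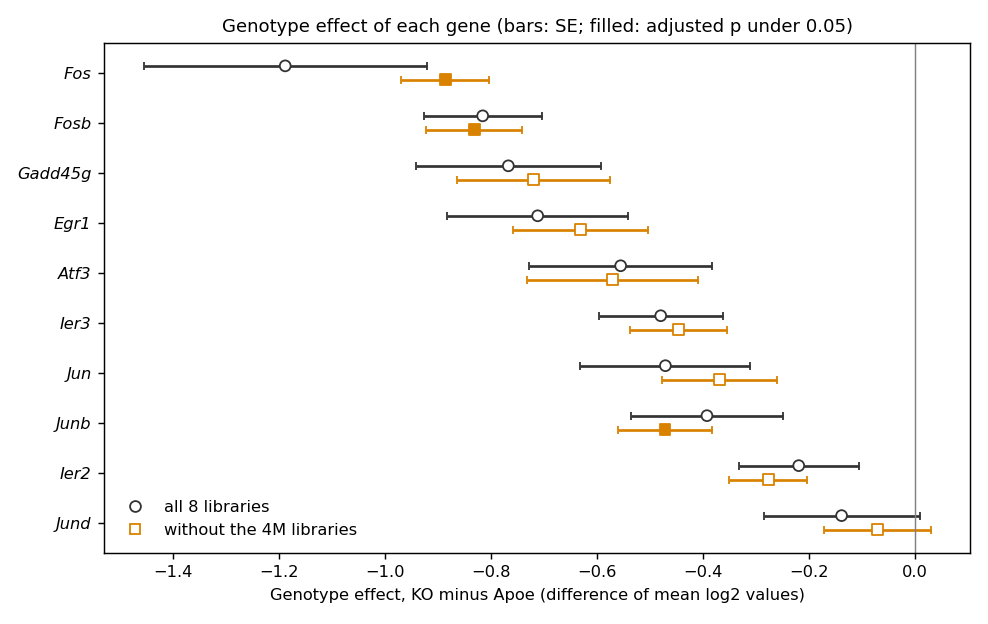
Genotype effect of each gene, as the difference of mean log2 values, KO minus Apoe (x axis), for the 10 genes (y axis); circles are the fit of all 8 libraries, squares the fit without the 4M libraries, bars the SE, and filled symbols passed an adjusted p of 0.05. All points lie below 0, and the filled symbols are Fos, Fosb and Junb without the 4M libraries.

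Over the months of diet, 4 of the 10 genes fell in KO. The slope of the mean log2 value per month in KO was -0.55 ± 0.16 for Gadd45g (adjusted p = 0.0407 by limma), -0.48 ± 0.14 for Fos (adjusted p = 0.0443), -0.32 ± 0.09 for Atf3 (adjusted p = 0.0445) and -0.22 ± 0.07 for Egr1 (adjusted p = 0.0495). In the same fit 18.7% of all genes were called lower with months in KO and 10.8% higher, and without KO 4M 0 genes of the table were called in KO (1725 had an unadjusted p under 0.05). Without KO 4M the KO slope was 0.10 for Fos, -0.15 for Gadd45g, -0.27 for Atf3 and -0.30 for Egr1. In Apoe the slopes were -0.45 ± 0.16 for Gadd45g, -0.19 ± 0.14 for Fos, -0.25 ± 0.09 for Atf3 and -0.08 ± 0.07 for Egr1. By limma 0 of the 10 were called in Apoe, as were 0.0% of all genes, while an unadjusted p under 0.05 was reached by Atf3 and Gadd45g among the 10 and by 1074 genes in all.

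The difference of slopes between genotypes was called by limma for 0 of the 10 and for 0.0% of all genes, with an unadjusted p under 0.05 for 0 of the 10 and for 2195 genes in all. For Fos it was -0.29 ± 0.20 per month (adjusted p = 0.377 by limma), and it was 0.29 without KO 4M. A slope common to both genotypes was called for 0 of the 10, against 4.26% of genes, and was nearest to the threshold for Gadd45g (-0.50 ± 0.11, adjusted p = 0.0508 by limma) and Atf3 (-0.29 ± 0.07, adjusted p = 0.0562). Unadjusted, 7 of the 10 had a common slope with a p under 0.05, each lower with months, as were 25.8% of all genes. With the values of the diet tables, which the authors scaled separately, Gadd45g, Atf3, Ier3 and Jund passed, with slopes of -0.53, -0.31, -0.21 and -0.20, and 14.4% of all genes were called lower there. Other RNAs also changed at 4M. The nuclear RNA Malat1 was higher there, at 25373 CPM in KO and 25791 CPM in Apoe, against 12788 to 16597 CPM in the other libraries. Within each genotype the summed fibroblast and macrophage markers were highest at 4M, and the smooth muscle markers given above were lowest. The part of Malat1 and these markers in the slopes was not tested. The fibroblast markers summed to 11935 CPM in KO 4M and 3843 CPM in Apoe 4M. Pi16 was listed at 0 in both, and Serpinf1 and Dpt in Apoe 4M. The macrophage markers summed to 2271 CPM in KO 4M, with C1qa, C1qb and C1qc listed at 0. In Apoe 4M the only macrophage marker with a value was Lgals3, at 360.0 CPM, while Cd68, Lyz2, Cd14, C1qa, C1qb and C1qc were listed at 0.

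Within single cells the 10 genes were widely seen together. The 10 genes made up 0.797%, 0.971%, 0.908% and 0.435% of all UMIs in KO from ND to 4M, against 1.30%, 1.36%, 1.59% and 1.02% in Apoe. After thinning, the median cell held 21, 26, 24 and 10 UMIs of the 10 genes in KO, against 37, 38, 45 and 26 UMIs in Apoe. The cells between the 10th and 90th percentile ranged from 9 to 41 UMIs in KO ND and from 13 to 64 UMIs in Apoe ND, so the distributions overlapped and both ends lay lower in KO. At 4M they ranged from 3 to 29 UMIs in KO and from 7 to 61 UMIs in Apoe. All 10 genes were seen in 9.49%, 13.8%, 14.6% and 1.52% of thinned KO cells, against 27.3%, 27.1%, 35.8% and 14.7% of thinned Apoe cells.

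**Figure D3:**
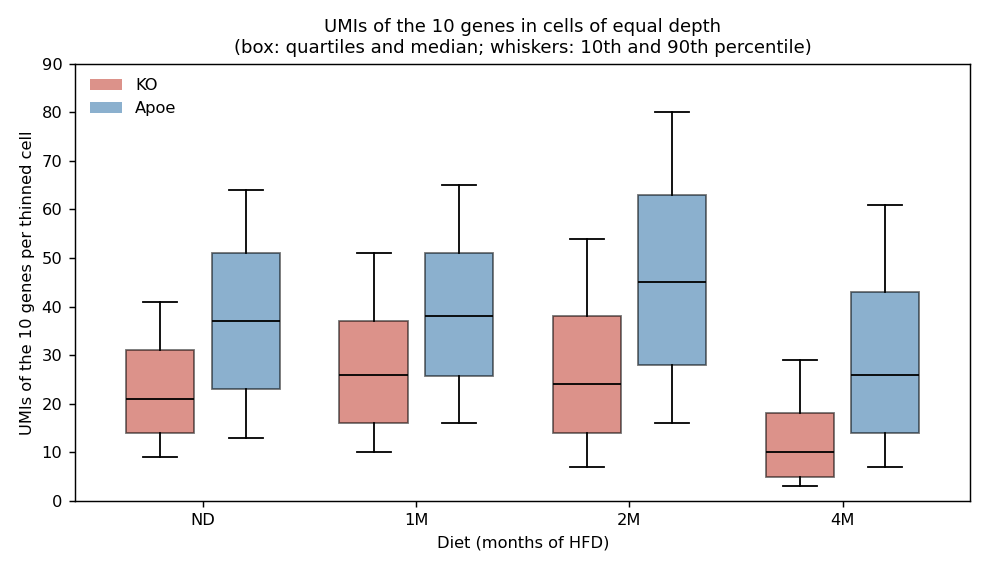
UMIs of the 10 genes per cell after every cell was thinned to 2905 UMIs (y axis, from 0) by diet (x axis), with KO left of Apoe; boxes give the quartiles and the median over cells of 1 library, whiskers the 10th and 90th percentile. The KO median lies below the Apoe median on each diet, from 10 against 26 UMIs at 4M to 26 against 38 UMIs at 1M.

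The genes were also correlated from cell to cell within a library. Over thinned cells the median Pearson correlation of the 45 pairs of genes was 0.17, 0.21, 0.29 and 0.19 in KO from ND to 4M, against 0.29, 0.24, 0.30 and 0.33 in Apoe. Fos with Egr1 was the closest pair in 7 of the 8 libraries (0.38 in KO ND, 0.57 in Apoe 2M), and Junb with Egr1 in KO 4M (0.48). Jund had the lowest mean correlation with the other genes in 7 libraries, 0.05 to 0.17, and in KO 4M Ier3 had the lowest. These are correlations over cells that share a library and a depth, given as descriptions, and sparse counts hold them down.

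Cells with much and little smooth muscle actin showed no single direction over the 10 genes. Cells of each library were ranked by Acta2 per UMI, and the upper tertile was set beside the lower one. Over 80 pairs of gene and library, 37 were higher in the Acta2-high cells. Fosb was lower in the Acta2-high cells in 8 of 8 libraries, from 221 against 445 CPM in KO 2M to 255 against 286 CPM in KO 4M, and from 438 against 806 CPM in Apoe 4M to 628 against 839 CPM in Apoe 2M. With thinned counts Fosb in KO 4M turned round, at 277 against 273 CPM. Fos was higher in the Acta2-high cells in 7 of 8 libraries, all but KO 2M, with 654 against 647 CPM in KO 4M and 2963 against 2008 CPM in Apoe 4M. With cells split at the median of Acta2, Fos in KO 1M turned round, at 2367 against 2409 CPM. In the Acta2-low cells of KO 4M no Acta2 UMI was left. The Acta2-high cells held 2505 CPM of Acta2 in KO 4M and 21542 CPM in Apoe 4M, so the tertiles of the 4M libraries do not match cells of like Acta2 level.

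Digestion of tissue also induces heat shock genes, and these were measured beside the 10 genes. The 16 genes of a heat shock list summed to 11223, 11570, 10988 and 7013 CPM in KO from ND to 4M, against 13149, 12990, 12191 and 9218 CPM in Apoe. KO was 0.853, 0.891, 0.901 and 0.761 times Apoe for the heat shock list, against 0.612, 0.715, 0.570 and 0.427 times for the 10 genes. Single genes departed from this sum in both directions. Dnajb1 stood at 225, 264, 195 and 371 CPM in KO from ND to 4M, against 468, 377, 347 and 213 CPM in Apoe. Hspa1a stood at 685, 575, 569 and 284 CPM in KO, against 956, 664, 496 and 752 CPM in Apoe. By limma 0 of the 16 were called between genotypes over all 8 libraries (2 had an unadjusted p under 0.05). Without the 4M libraries Dnajb1, Bag3 and Hsph1, a chaperone cofactor each, fell by 0.50, 0.36 and 0.31 in KO (adjusted p = 0.0297, 0.0360 and 0.0191 by limma). That was 3 of 16, against 4.39% of all genes called lower without the 4M libraries. The median effect of the heat shock list in that fit was -0.18, against -0.52 for the 10 genes and 0.00 for all genes.

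Cells with many heat shock UMIs also held many UMIs of the 10 genes. The correlation over thinned cells was 0.31, 0.37, 0.49 and 0.28 in KO from ND to 4M, against 0.49, 0.37, 0.38 and 0.53 in Apoe. Cells were then grouped by their heat shock UMIs at 22, 30 and 40, the quartiles of all cells, a grouping chosen after the data were seen. In all 16 combinations of range and diet the mean of the 10 genes was lower in KO, at 0.449 to 0.938 times the Apoe mean, with at least 94 cells in each. The ratio nearest to level was that of cells with up to 22 heat shock UMIs on ND, with means of 18.2 UMIs in KO and 19.4 UMIs in Apoe, and there the median was 16 UMIs in KO and 14 UMIs in Apoe. In cells with over 40 heat shock UMIs the means were 28.5, 34.2, 41.2 and 30.8 UMIs in KO from ND to 4M, against 46.3, 47.0, 57.4 and 47.0 UMIs in Apoe. The lower mean of the 10 genes in KO was found within each of these ranges. The ranges rest on a sum in which genes weigh unequally, with Hspa8 at 1432 to 2538 CPM and Dnajb1 at 195 to 468 CPM. Whether they match cells of like digestion response was not tested. The labels do not tell apart the digestion times of the 8 libraries, so handling and genotype cannot be told apart, with 1 library for each genotype and diet.

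**Figure D4:**
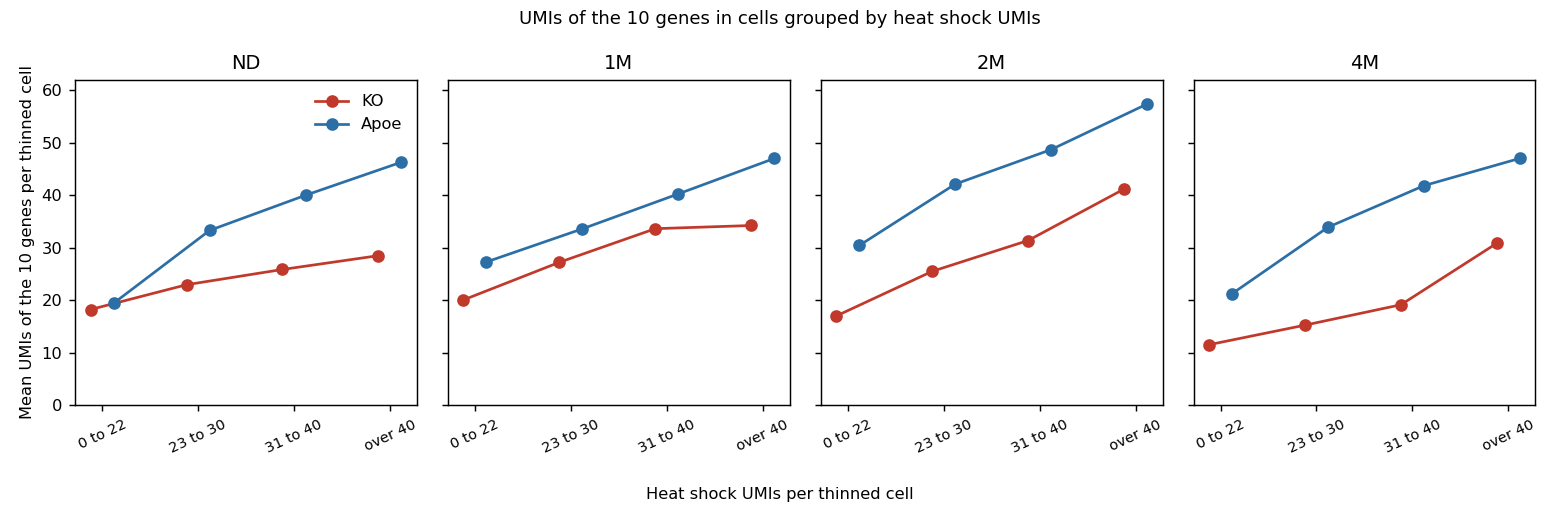
Mean UMIs of the 10 genes per thinned cell (y axis, from 0) in cells grouped by heat shock UMIs per thinned cell (x axis), 1 panel for each diet, with KO drawn left of Apoe. KO lies below Apoe in all 16 groups, and both genotypes climb with heat shock UMIs.

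Other immediate early genes were lower in KO as well, before 4M. Of 38 such genes, 0 were called between genotypes by limma over all libraries. Unadjusted, 12 had a p under 0.05 and were lower in KO, against 7.38% of all genes. Without the 4M libraries 16 of the 38 fell in KO and 0 rose, with a median effect of -0.24. In that fit 4.39% of all genes were called lower and 2.91% higher. Nr4a1, an orphan nuclear receptor, fell by 1.04 ± 0.07 there (adjusted p = 0.00898), at 333, 387 and 404 CPM in KO from ND to 2M, against 890.2, 845 and 925 CPM in Apoe. Gadd45b, the paralog of Gadd45g, fell by 0.94 ± 0.15 and Hbegf, a growth factor of the EGF family, by 0.82 ± 0.10. The others that fell were Bhlhe40, Cebpd, Csrnp1, Egr2, Gadd45a, Klf2, Klf4, Klf6, Klf10, Mcl1, Nr4a2, Nr4a3 and Zfp36, by 0.13 to 0.60. Ccn1, a matrix protein of the early wave, had the third largest effect over all 8 libraries after Gadd45b and Hbegf, at -0.83 for Ccn1, -1.03 for Gadd45b and -0.93 for Hbegf.

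Over the months these genes parted in KO. By limma 11 of the 38 rose with months in KO and 8 fell, calls that again rest on KO 4M. Of all genes 10.8% rose and 18.7% fell in that fit, so the count that fell is near the share of all genes. Nr4a2, an orphan nuclear receptor, rose most, with 64.3, 103, 108 and 539 CPM in KO from ND to 4M, against 155, 156, 176 and 109 CPM in Apoe. Phlda1 and Ptgs2, the inducible cyclooxygenase, stood at 735 and 193 CPM in KO 4M, against 223 and 142 CPM in Apoe 4M, and both rose in KO. Bhlhe40, Cebpd, Egr2, Egr3, Nfkbiz, Nr4a3, Per1 and Tiparp rose too. Ccn1, Gadd45a, Hbegf, Ier5l, Plk2, Rhob, Sgk1 and Zfp36l1 fell, Ccn1 to 464 CPM in KO 4M, against 2641 CPM in Apoe 4M. In the slope common to both genotypes, Gadd45a and Ier5 fell, 2 of 38, which is near the 4.26% of all genes called there in either direction.

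Partners of AP-1 had smaller effects in the median. Of 20 other AP-1 family genes and partners, 16 were tested, and 0 were called between genotypes over all libraries (2 had an unadjusted p under 0.05). Without the 4M libraries 4 fell in KO: Maff by 0.37 ± 0.06 (adjusted p = 0.0360), Mafk by 0.29 ± 0.03 (adjusted p = 0.0191), Fosl2 by 0.25 ± 0.04 (adjusted p = 0.0413) and Ddit3 by 0.19 ± 0.03 (adjusted p = 0.0427), all bZIP proteins. In that fit 4.39% of all genes were called lower. Atf4, the factor of the integrated stress response, had an effect of -0.49 there and missed the threshold (adjusted p = 0.0550 by limma). The median effect of the 16 was -0.03, nearer to that of all genes than the -0.52 of the 10. On this scale, with zeros included, a gene seen in few cells tends to show a small effect. In summed CPM the list stood at 0.753, 0.829, 0.630 and 1.01 times Apoe in KO from ND to 4M. The 10 genes stood at 0.612, 0.715, 0.570 and 0.427 times. With months in KO, Ddit3 rose and Mafk fell, 1 of 16 each, against 10.8% and 18.7% of all genes.

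No gene upstream was called between genotypes. Of 24 kinases and serum response factors, 22 were tested, and 0 were called between genotypes with the 4M libraries (1 had an unadjusted p under 0.05) or without them (3 had one). Srf, the factor that binds the CArG box, stood at 59.3, 51.0, 41.7 and 32.2 CPM in KO from ND to 4M, against 50.2, 52.2, 43.6 and 51.1 CPM in Apoe. Map2k3, a kinase of the p38 branch, had an effect of -0.45 without the 4M libraries and missed the threshold (adjusted p = 0.0577 by limma). With months in KO, Map2k1, Mapk9 and Mapk14 fell, 3 of 22, which is not above the 18.7% of all genes called lower there. Mapk14 also fell in the common slope. RNA levels do not show kinase activity.

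The brakes of the pathway were partly lower too. Of 14 negative feedback genes 12 were tested, and 0 were called over all libraries (4 had an unadjusted p under 0.05). Without the 4M libraries Dusp14, Nab2 and Spry1 fell in KO by 0.22, 0.13 and 0.07 (adjusted p = 0.0116, 0.0433 and 0.0401 by limma). That was 3 of 12, against 4.39% of all genes called lower in that fit. Dusp1, the phosphatase induced with Fos, stood at 1399, 1727, 1597 and 634 CPM in KO from ND to 4M, against 1967, 1969.7, 1902 and 1601 CPM in Apoe. Nfkbia, the inhibitor of NF-kappa-B, had the largest effect of the list over all 8 libraries, -0.58 ± 0.18 (adjusted p = 0.300 by limma). With months in KO, Dusp1, Dusp2, Dusp5, Dusp10, Nab1 and Spry1 fell and Spred1 rose, and Dusp2 and Spry1 were listed at 0 in KO 4M. In that slope 6 of 12 fell and 1 rose, against 18.7% and 10.8% of all genes.

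Reported targets of AP-1 or EGR1 stood on both sides of 0. Of 16 such genes 12 were tested. Without the 4M libraries Pdgfa, a growth factor for smooth muscle, fell by 0.23 ± 0.04 in KO (adjusted p = 0.0437 by limma), at 123, 136 and 159 CPM in KO from ND to 2M, against 179, 165 and 237 CPM in Apoe. Thbs1, a matrix glycoprotein, rose by 0.21 ± 0.03 in that fit (adjusted p = 0.0299), at 84.5, 77.0 and 107 CPM in KO, against 27.8, 22.2 and 54.1 CPM in Apoe. The median effect of the list was 0.13 over all libraries, with 9 of 12 higher in KO. With months in KO, Spp1, Timp1, Thbs1, Mmp3 and Mmp14 rose and Vim fell, and Timp1 stood at 66.8, 71.4, 521 and 1443 CPM in KO, against 37.6, 38.1, 127 and 333 CPM in Apoe. In that slope 5 of 12 rose and 1 fell, against 10.8% and 18.7% of all genes.

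**Figure D5:**
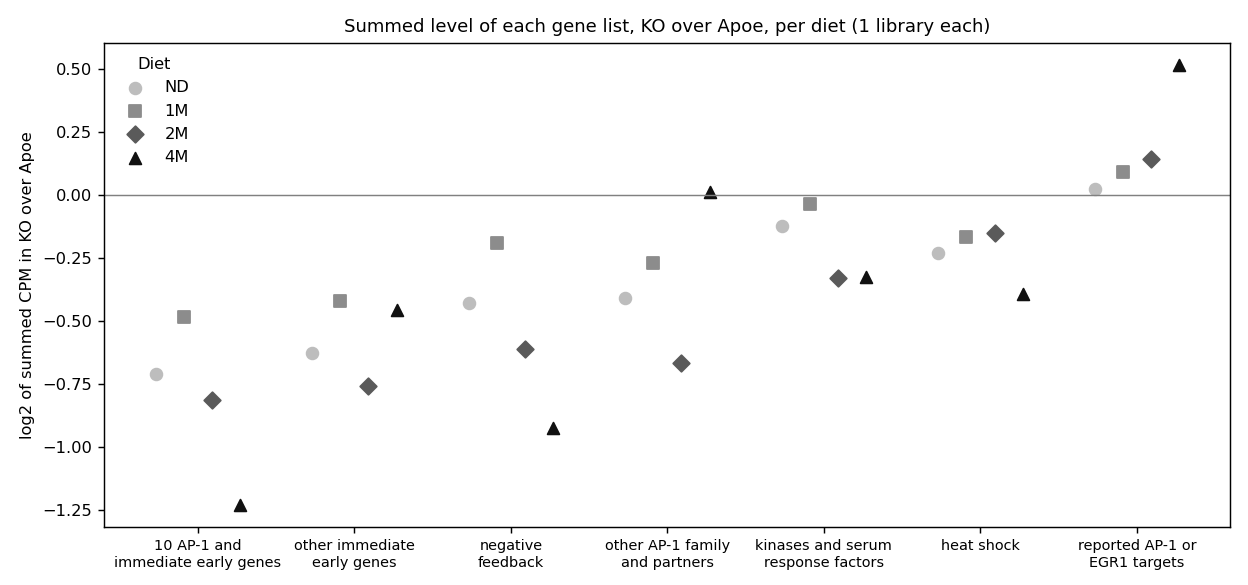
Summed CPM of each gene list in KO over Apoe on the log2 scale (y axis), for 7 lists (x axis) and 4 diets (symbols from ND at the left to 4M at the right of each list), with 1 library in each group. The 10 genes lie between -0.48 and -1.23, heat shock genes between -0.15 and -0.39, and reported targets between 0.02 and 0.52.

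Over the 8 libraries the genes outside the set whose level was most like the mean of the 10 were Mpp5, Csrnp1, Gas2l1, Epc2, Oat, Smad7, Zfp410, Msl1, Foxp1 and Hbegf, with Pearson correlations of 0.992 to 0.982 with the mean of log2(CPM + 1), centred for each gene. They were picked from 7984 genes listed in all libraries, of which 408 had a correlation over 0.9, so many genes order these libraries in the same way. All of them share the depth and the cells of the libraries, KO 4M included, and the measure is a description.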

How the data were processed

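Each of the 6 deposited tables holds, per the file names, log2 expression values of single cells after trimmed-mean scaling by the authors, with cells in rows. Per the submitters' processing notes, UMI-tools, STAR and featureCounts of Subread 1.6.0 were used with build GRCm38; which annotation release they used is not stated. Values were turned back into UMIs, and 100% of entries above 0 came out whole within 0.01. A gene seen in under 5% of a library's cells is listed at 0. Of 11447 gene identifiers, 11439 matched GENCODE vM21.

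CPM are the summed UMIs of a library per 1000000, with exact Poisson intervals, and both intervals and shares cover counting error only. Library totals ran from 9407155 to 19719335 UMIs. Thinning drew 2905 UMIs from each cell, and no cell was left out. The plan foresaw counts or logs. The tables hold logs, so limma 3.58.1 (R 4.3.3, trend) was run on the mean log2 value of each library for 9253 genes seen in 5% of cells or more on average, with Benjamini-Hochberg adjustment and a threshold of 0.05. Genotype effects used the diet tables, with a term for each diet (3 residual degrees of freedom, 2 without 4M). Slopes used the time-course tables (5, or 4 within genotypes). The procedure was tested on simulated data. With 4 diets, an exact two-sided sign-flip test of 1 gene cannot go below p = 0.125. No doublet caller was run. Tgfbr2 and Apoe were not analysed here, so the genotype labels were not checked on RNA.

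The 10 genes and the gene lists were chosen with earlier results of these data known, and the heat shock ranges and the TGACG motif after the data were seen. Beyond the 10 genes, named genes are those called in a list or among its 3 with the largest effect. Some genes of these lists are not reported here. Other settings tried were the scaling, the pseudocount, the filter, thinning, the table used, the coding of time, and leaving out each diet or KO 4M.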

Additional observations from a re-analysis of the deposited data

How the results depend on the processing

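No paired analysis was possible because the labels give no replicate numbers and each genotype and diet has 1 library; KO and Apoe libraries were matched by diet alone, through the diet term of the genotype fit. The sign of all 10 genotype effects held under every alternative run, and 39 of 40 pairs were lower in KO in CPM with every alternative run for that count except median-ratio scaling, which gave 38 and was added after seeing the data. The number of genes called was less stable, and the cause was not tested. For the genotype effect 15 genes were called, against 1 with log2(CPM + 1), 0 with log2(CPM + 0.1), 1 with median-ratio scaling, 25 with thinned cells, 7 among genes listed in all libraries, and 0 to 675 when 1 diet was left out. For the common slope 394 were called, against 1 with either CPM scale, 150.0 without a filter, 1390.0 with the other table, 0 with ranked time, 0 for HFD against ND, 172 without KO 4M and 0 with any diet left out. For the difference of slopes 0 were called, and 0 to 1605 with 1 diet left out. For the slope in KO 2729 were called, against 0 with ranked time, 0 without KO 4M and 0 to 4266 with 1 diet left out.

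Directions that turned were as follows. The Ier2 common slope was 0.018 with either CPM scale, and its slope in KO -0.019 with the other table. Without KO 4M the difference of slopes was 0.29 for Fos, 0.052 for Jun, 0.027 for Jund, 0.15 for Ier3 and 0.30 for Gadd45g, and the Fos slope in KO was 0.098. With 1 diet left out, the common slope ranged from -0.038 to 0.26 for Junb, -0.51 to 0.056 for Fos and -0.029 to 0.015 for Ier2. The difference of slopes ranged from -0.19 to 0.013 for Fosb, -0.38 to 0.080 for Atf3, -0.46 to 0.084 for Fos, -0.13 to 0.033 for Jun, -0.016 to 0.071 for Ier2 and -0.095 to 0.046 for Ier3. The slope in KO ranged from -0.74 to 0.098 for Fos and -0.0011 to 0.0094 for Ier2.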
